A study of Mus musculus with 20 samples.

Results

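The Wnt ligands, their receptors and their secreted modulators make up a set of 60 mouse genes, chosen by symbol from the 54304 genes of the deposited table: 19 ligands, 14 receptors and co-receptors, 11 secreted antagonists, 3 Dact adaptors, 9 R-spondins, LGR receptors and ubiquitin ligases, and 4 genes of the nuclear end of the pathway. Of these, 43 were above 0 in at least 5 of 20 libraries and were tested, 12 were listed at 0 in every library, and 5 were above 0 in 1 to 4 libraries. The libraries came from a pair of sorted stromal populations of gonadal white fat. Fibro-inflammatory progenitors (FIPs) were sorted as CD45-, CD31-, PDGFRb+ and LY6C+ cells, and adipocyte precursor cells (APCs) as CD45-, CD31-, PDGFRb+, LY6C- and CD9- cells. Each population was taken from Mural-Zfp423 transgenic mice (Tg) and from control mice (Ctrl), all males given as 8 weeks old, housed at 30 °C and fed a diet with 60% of its energy from fat for 1 month. The 4 groups were Tg FIPs, Ctrl FIPs, Tg APCs and Ctrl APCs, with 5 libraries each. A library held RNA pooled from 2 mice and each genotype had 10 mice, so some mice must have given RNA to a FIP library as well as to an APC library. Which promoter drives the transgene is not named in the labels. The p-values below measure the spread between pools. They treat FIP and APC libraries as independent, since the labels do not say which of them share mice.

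Wnt proteins are secreted, lipid-modified signals that bind a Frizzled receptor together with an LRP5 or LRP6 co-receptor. In the canonical branch this stabilises beta-catenin, which acts with TCF/LEF factors on target genes such as Axin2, and other ligands signal through ROR receptors or planar polarity proteins. Secreted Frizzled-related proteins (Sfrp), Dickkopf proteins (Dkk) and Wif1 act outside the cell on ligand or receptor, while R-spondins bound to LGR receptors keep the ligases Znrf3 and Rnf43 from removing Frizzleds. In fat, canonical signalling, and Wnt10b in particular, is known for restraining the conversion of precursors into adipocytes.

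Values are the deposited log2 CPM, read counts scaled to the depth of each library, in which a CPM of 1 or less is listed as 0. A difference that involves values near that floor is therefore smaller than the true one. Depth, worked out from the steps between low values, was 7.83 to 8.51 M reads in Tg FIPs, 6.77 to 8.22 in Ctrl FIPs, 6.60 to 8.38 in Tg APCs and 7.60 to 8.00 in Ctrl APCs. The sort showed in marker genes: the summed level of 6 FIP markers (Ly6c1, Ly6c2, Dpp4, Pi16, Cd55 and Sema3c) was 1650 to 1810 CPM in Tg FIPs and 1800 to 1960 CPM in Ctrl FIPs, against 205 to 247 CPM in Tg APCs and 295 to 323 CPM in Ctrl APCs. Ly6c1 and Ly6c2 encode the LY6C used in the sort. The APC markers Pparg, Fabp4, Lpl, Plin2 and Cd36 were all lower in FIPs than in APCs in both genotypes. Zfp423 itself averaged 5.53 ± 0.04 log2 CPM in Tg FIPs and 5.47 ± 0.12 in Ctrl FIPs, and 4.70 ± 0.27 in Tg APCs and 4.97 ± 0.17 in Ctrl APCs (SD, n = 5 each). The gene of the transgene thus did not stand higher in the libraries labelled transgenic (limma adjusted p = 0.933 in FIPs and 0.108 in APCs), so that genotype below means the label of the library.

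The first question was how FIPs and APCs differ in the Wnt signals they make and can receive. FIPs carried far more mRNA for Wnt10b and Wnt2, for the antagonists Sfrp4, Dkk3 and Sfrp2, and for the adaptor Dact2. Wnt16 was detected in FIP libraries alone. Dact1 was higher in FIPs by a smaller margin, while Rspo3, Wnt6 and Znrf3 were lower in FIPs than in APCs. In Tg mice 31 of the 43 tested members passed limma's test across all genes (Benjamini-Hochberg adjusted p under 0.05), 23 higher and 8 lower in FIPs, where 41.7% of the 17435 genes tested passed (22.7% higher and 19% lower; with libraries centred on their medians 3185 genes higher and 4091 lower, against 3962 and 3313). In Ctrl mice 26 members passed, 19 higher and 7 lower in FIPs, where 47.5% of all genes passed (19.6% higher and 27.9% lower; with libraries centred on their medians 4178 genes higher and 3740 lower, against 3422 and 4866). With that centring the members split 20 higher and 7 lower in Tg mice and 19 and 7 in Ctrl mice. Wnt1, Wnt16, Fzd10 and Rspo2 were above 0 in FIP libraries alone and so entered the test only through FIPs; the first 3 are among the members counted as higher in each genotype. The median difference over the tested members, FIP minus APC, was 0.29 in Tg mice and 0.25 in Ctrl mice, against -0.01 and -0.06 over all tested genes. The median absolute difference was 0.47 in Tg mice and 0.51 in Ctrl mice, against 0.20 and 0.22 over all tested genes. The 5 FIP and 5 APC libraries did not overlap for 25 members in Tg mice and for 24 in Ctrl mice, where 29% and 31.4% of all tested genes did not overlap. Wnt1, Wnt16 and Fzd10, which entered only through FIPs, are among these members in each genotype. With Rspo2 they also enter the medians over the tested members. In bulk libraries like these, fewer cells that express a gene and less mRNA per cell cannot be told apart.

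**Figure D1:**
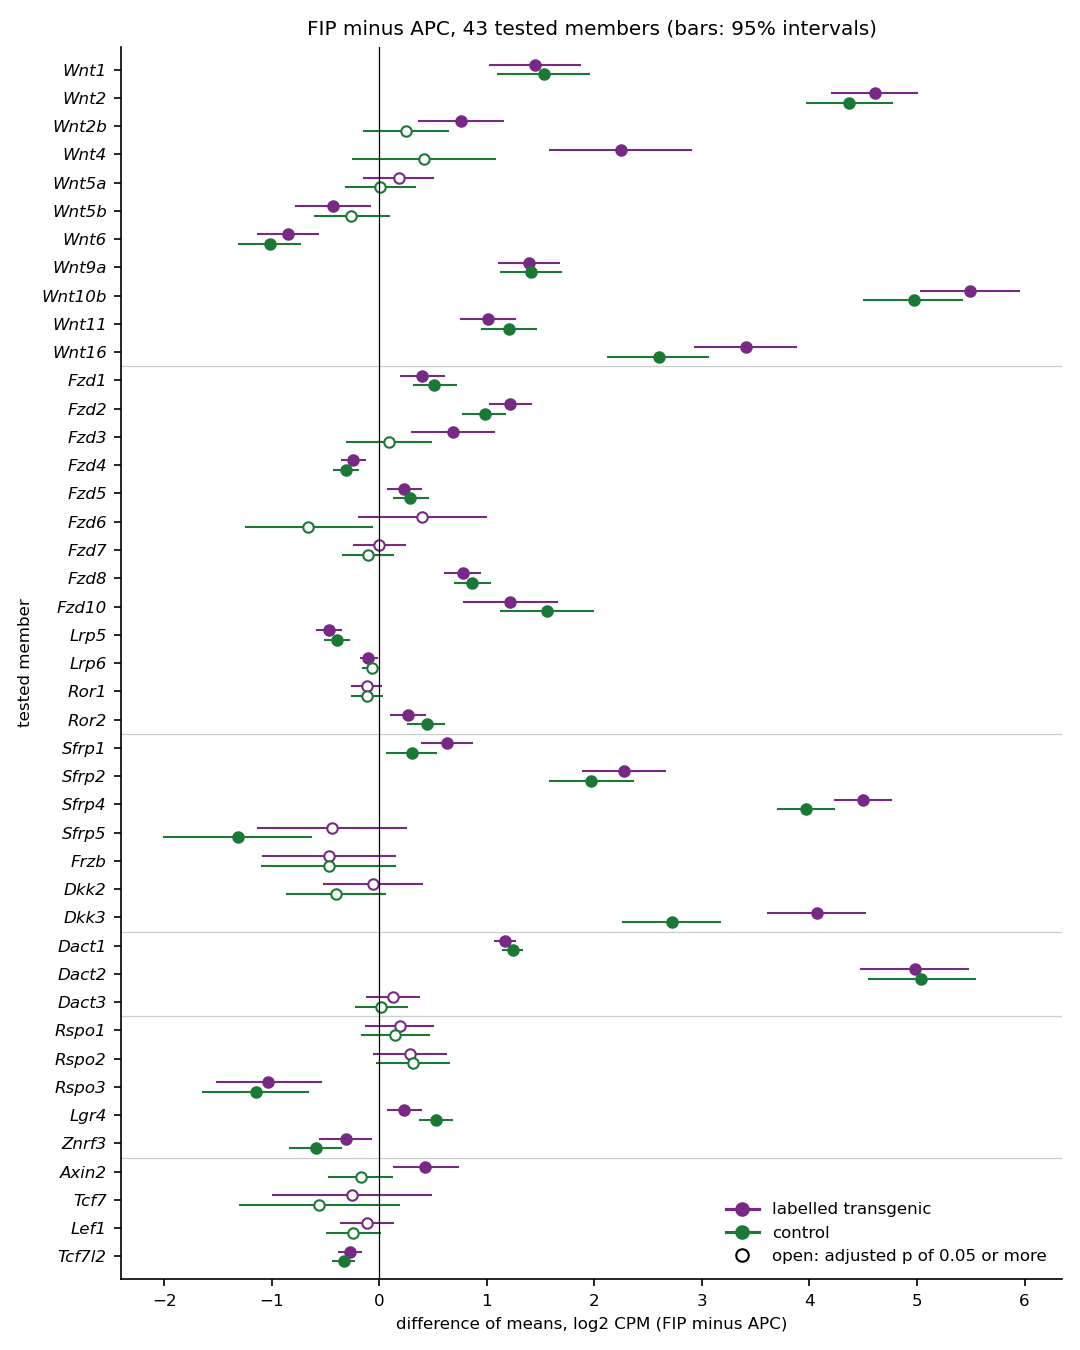
Difference of mean log2 CPM between FIPs and APCs (x axis, FIP minus APC) for the 43 tested members (y axis, grouped by role and divided by grey lines), in libraries labelled transgenic (purple, upper) and control (green, lower). Bars are 95% intervals and filled points passed limma's test; Dact2, Wnt10b, Wnt2, Sfrp4 and Dkk3 lie farthest to the right in both genotypes, and Rspo3 and Wnt6 are on the left.

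Several sets of marker genes for other cells had unequal mRNA levels in FIPs and APCs as well. The summed level of 8 mural markers was 432 to 539 CPM in Tg FIPs and 402 to 432 in Ctrl FIPs, against 728 to 836 in Tg APCs and 747 to 1010 in Ctrl APCs. Of them, 4 were lower in Tg FIPs than in Tg APCs and all 8 were lower in Ctrl FIPs than in Ctrl APCs. Of 10 mesothelial markers, 2 were lower and 1 was higher in Tg FIPs, and 9 were lower in Ctrl FIPs, with sums of 224 to 254 CPM in Tg FIPs, 190 to 275 in Ctrl FIPs, 181 to 253 in Tg APCs and 249 to 279 in Ctrl APCs. Of 10 endothelial markers, 0 were lower and 1 was higher in Tg FIPs, while 9 were lower and 1 was higher in Ctrl FIPs. Their sums were 664 to 838 CPM in Tg FIPs, 580 to 743 in Ctrl FIPs, 543 to 730 in Tg APCs and 645 to 841 in Ctrl APCs. Of 6 erythroid markers, 3 were lower in Tg FIPs and 6 in Ctrl FIPs, with sums of 308 to 559 CPM in Tg FIPs, 451 to 522 in Ctrl FIPs, 454 to 1040 in Tg APCs and 805 to 1540 in Ctrl APCs. Of 10 macrophage markers, 1 was lower in Tg FIPs and 0 in Ctrl FIPs, with sums of 147 to 268 CPM in Tg FIPs, 217 to 401 in Ctrl FIPs, 180 to 291 in Tg APCs and 274 to 460 in Ctrl APCs. Schwann and epididymal epithelium markers summed to at most 43.7 and 39.3 CPM in any library. Of 4 Schwann markers 0 were lower in Tg FIPs and 3 in Ctrl FIPs, and of 4 epididymal ones 1 and 4. Whether this mRNA came from other cells or from the sorted ones was not tested, nor was its part in the Wnt differences.

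Among the ligands, 11 of 19 were tested. In FIPs of Tg mice 8 were higher and 2 lower than in APCs, and in Ctrl mice 6 were higher and 1 lower. That is 90.9% and 63.6% called, against 41.7% and 47.5% of all tested genes. Wnt1 and Wnt16, which entered the test only through FIPs, are among the higher ligands in both genotypes and raise both shares. Wnt10b, a canonical ligand that holds back adipocyte formation (chromosome 15, 98770712 to 98778150, minus strand), stood at 5.99, 5.74, 5.67, 5.7 and 5.76 log2 CPM in Tg FIPs and at 6.05, 6.05, 5.78, 6.21 and 5.6 in Ctrl FIPs, against 0.51, 0.00, 0.18, 0.63 and 0.08 in Tg APCs and 0.07, 0.85, 0.81, 1.42 and 1.71 in Ctrl APCs. Gene positions are of GRCm38. Every FIP library lay more than 3 log2 units above every APC library. The difference was 5.49 ± 0.22 (SE) in Tg mice and 4.97 ± 0.22 in Ctrl mice, with limma adjusted p of 2.65e-14 and 1.44e-13. As 1 Tg APC library was listed at 0, an exact permutation test over libraries was also run, and gave 0.00794 in each genotype, the smallest two-sided p that 5 against 5 libraries allow.

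Wnt2, another canonical ligand (chromosome 6, 17988940 to 18030585, minus strand), followed the same division. It was at 5.05, 5.0, 4.7, 4.08 and 4.71 log2 CPM in Tg FIPs and at 4.86, 4.93, 4.77, 5.11 and 5.04 in Ctrl FIPs, against 0.00, 0.5, 0.01, 0.00 and 0.00 in Tg APCs and 0.00, 0.37, 0.7, 1.12 and 0.65 in Ctrl APCs. The FIP libraries did not overlap the APC libraries, 4 of which were listed at 0. The difference was 4.61 ± 0.19 in Tg mice (limma adjusted p = 4.87e-14) and 4.37 ± 0.19 in Ctrl mice (limma adjusted p = 1.3e-13). The exact permutation p was 0.00794 in both genotypes.

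Wnt16 and Wnt1 were detected in every FIP library and listed at 0 in all 10 APC libraries, so no fold is given. Wnt16, a ligand known for its role in bone, was at 3.27, 2.75, 2.86, 3.75 and 4.4 log2 CPM in Tg FIPs and at 2.56, 2.83, 2.1, 2.69 and 2.81 in Ctrl FIPs. Wnt1, the founding member of the family, was at 1.58, 1.82, 1.06, 1.49 and 1.3 in Tg FIPs and at 1.95, 0.66, 1.64, 2.17 and 1.22 in Ctrl FIPs. Since both genes entered the test only through FIPs, no test is given for them. A value of 0 in this table means at most 1 CPM, a handful of reads at these depths, so low expression in APCs was not detectable.

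Wnt1 and Wnt10b are neighbours on chromosome 15, 11.7 kb apart on opposite strands. Their levels were not alike, at 1.17 and 1.29 CPM per exonic kb for Wnt1 in Tg and Ctrl FIPs and at 16.1 and 18.2 for Wnt10b. The sequences below are RefSeq promoters (GRCm38.p6), from 250 bases before to 50 bases after a start site, of the 4 members with the largest FIP excess that the promoter table holds, and of Wnt1 as the neighbour of Wnt10b. Capitals mark the GC box GGGCGG or its reverse complement.
Wnt10b, chr15:98778101-98778400, minus strand: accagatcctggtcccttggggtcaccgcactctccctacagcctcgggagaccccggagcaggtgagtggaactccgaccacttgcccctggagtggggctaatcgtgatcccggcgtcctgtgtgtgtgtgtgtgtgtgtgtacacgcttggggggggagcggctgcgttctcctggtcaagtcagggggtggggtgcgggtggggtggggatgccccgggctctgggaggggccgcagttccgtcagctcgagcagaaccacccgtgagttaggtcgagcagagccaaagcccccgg
Wnt1, chr15:98789607-98789906, plus strand: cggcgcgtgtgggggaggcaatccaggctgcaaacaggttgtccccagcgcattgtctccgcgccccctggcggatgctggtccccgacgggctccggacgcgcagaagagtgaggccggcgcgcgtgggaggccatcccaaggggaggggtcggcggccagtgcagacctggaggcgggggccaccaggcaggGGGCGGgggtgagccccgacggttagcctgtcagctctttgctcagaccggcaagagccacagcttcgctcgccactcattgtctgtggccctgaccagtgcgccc
Wnt2, chr6:18030396-18030695, minus strand: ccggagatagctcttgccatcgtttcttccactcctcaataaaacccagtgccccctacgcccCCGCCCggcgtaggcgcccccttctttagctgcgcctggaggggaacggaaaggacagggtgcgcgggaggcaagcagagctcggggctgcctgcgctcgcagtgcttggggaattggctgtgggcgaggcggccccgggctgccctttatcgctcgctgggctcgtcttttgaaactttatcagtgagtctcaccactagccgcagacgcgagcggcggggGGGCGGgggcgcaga
Wnt16, chr6:22287977-22288276, plus strand: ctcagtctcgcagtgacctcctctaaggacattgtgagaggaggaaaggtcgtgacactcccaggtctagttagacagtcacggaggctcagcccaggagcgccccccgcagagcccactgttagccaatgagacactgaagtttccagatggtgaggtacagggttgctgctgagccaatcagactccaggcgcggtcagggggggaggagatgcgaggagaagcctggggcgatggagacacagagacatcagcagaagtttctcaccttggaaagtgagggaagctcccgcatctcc
Dact2, chr17:14203782-14204081, minus strand: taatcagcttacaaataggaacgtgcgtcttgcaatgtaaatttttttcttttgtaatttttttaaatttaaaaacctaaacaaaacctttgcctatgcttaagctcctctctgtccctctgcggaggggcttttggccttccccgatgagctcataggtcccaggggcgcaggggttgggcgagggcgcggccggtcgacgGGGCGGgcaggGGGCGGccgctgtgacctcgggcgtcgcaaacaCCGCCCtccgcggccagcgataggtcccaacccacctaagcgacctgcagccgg
The GC box occurred 3 times in the Dact2 window, 2 times for Wnt2 and 1 time for Wnt1, and was not in the windows of Wnt10b and Wnt16. Their GC content was 66.3% for Wnt10b, 70.7% for Wnt1, 65.7% for Wnt2, 58% for Wnt16 and 56.7% for Dact2, where the median of all promoters was 52.7%. Over the 50 promoters of the 41 members in the table, 74% held a GC box, against 35.7% of 32851 promoters. The TCF/LEF letters ATCAAAG or TTCAAAG, searched on both strands, were in 3 of the 50 (6%, for Wnt5b, Wnt11 and Dkk1), against 8.65% of all promoters. The AP-1 letters TGANTCA were in 2 of the 50 (4%), against 7.81%, and a palindromic EBF motif was in 0 of the 50, against 0.904%. No TCF/LEF, AP-1 or EBF match lay in the windows printed here.

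The other ligands differed less between the populations. Wnt9a was higher in FIPs by 1.39 ± 0.13 in Tg mice and 1.41 ± 0.13 in Ctrl mice, and Wnt11, a ligand of the non-canonical branch, by 1.01 ± 0.12 and 1.21 ± 0.12; both passed in each genotype. Wnt6 went the other way, at 1.18, 0.92, 1.06, 0.94 and 1.08 log2 CPM in Tg FIPs and 0.8, 0.24, 0.7, 0.77 and 0.78 in Ctrl FIPs, against 1.76, 1.9, 1.77, 2.26 and 1.74 in Tg APCs and 1.47, 1.9, 1.81, 1.61 and 1.59 in Ctrl APCs. All 10 FIP libraries lay below all 10 APC libraries, and Wnt6 passed in both genotypes. Wnt5a, the main non-canonical ligand, was near the same level throughout, with differences of 0.18 (95% interval -0.14 to 0.50) in Tg mice and 0.01 (-0.31 to 0.33) in Ctrl mice. Its close relative Wnt5b differed by -0.43 in Tg mice, which passed, and by -0.26 in Ctrl mice, which did not. The Tg call was lost in 8 of 10 fits without 1 library and with no filter (adjusted p up to 0.119), and without Ctrl APC replicate 5 the Ctrl difference passed.

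Wnt4 and Wnt2b passed in Tg mice but not in Ctrl mice. Wnt4, a ligand with roles in kidney and gonad development, was at 4.44, 4.3, 3.93, 4.85 and 5.44 log2 CPM in Tg FIPs and 3.48, 3.61, 3.22, 3.73 and 3.57 in Ctrl FIPs, against 2.81, 2.32, 1.83, 2.96 and 1.81 in Tg APCs and 4.36, 3.21, 2.81, 2.64 and 2.48 in Ctrl APCs. The highest APC value, 4.36, was in Ctrl APC replicate 1, and without that library Wnt4 also passed in Ctrl mice. The FIP excess was 2.25 ± 0.32 in Tg mice and 0.42 ± 0.32 in Ctrl mice. Wnt2b was higher in FIPs by 0.76 ± 0.19 in Tg mice and 0.25 ± 0.19 in Ctrl mice. Whether these excesses differ between genotypes is given with the interaction below.

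**Figure D2:**
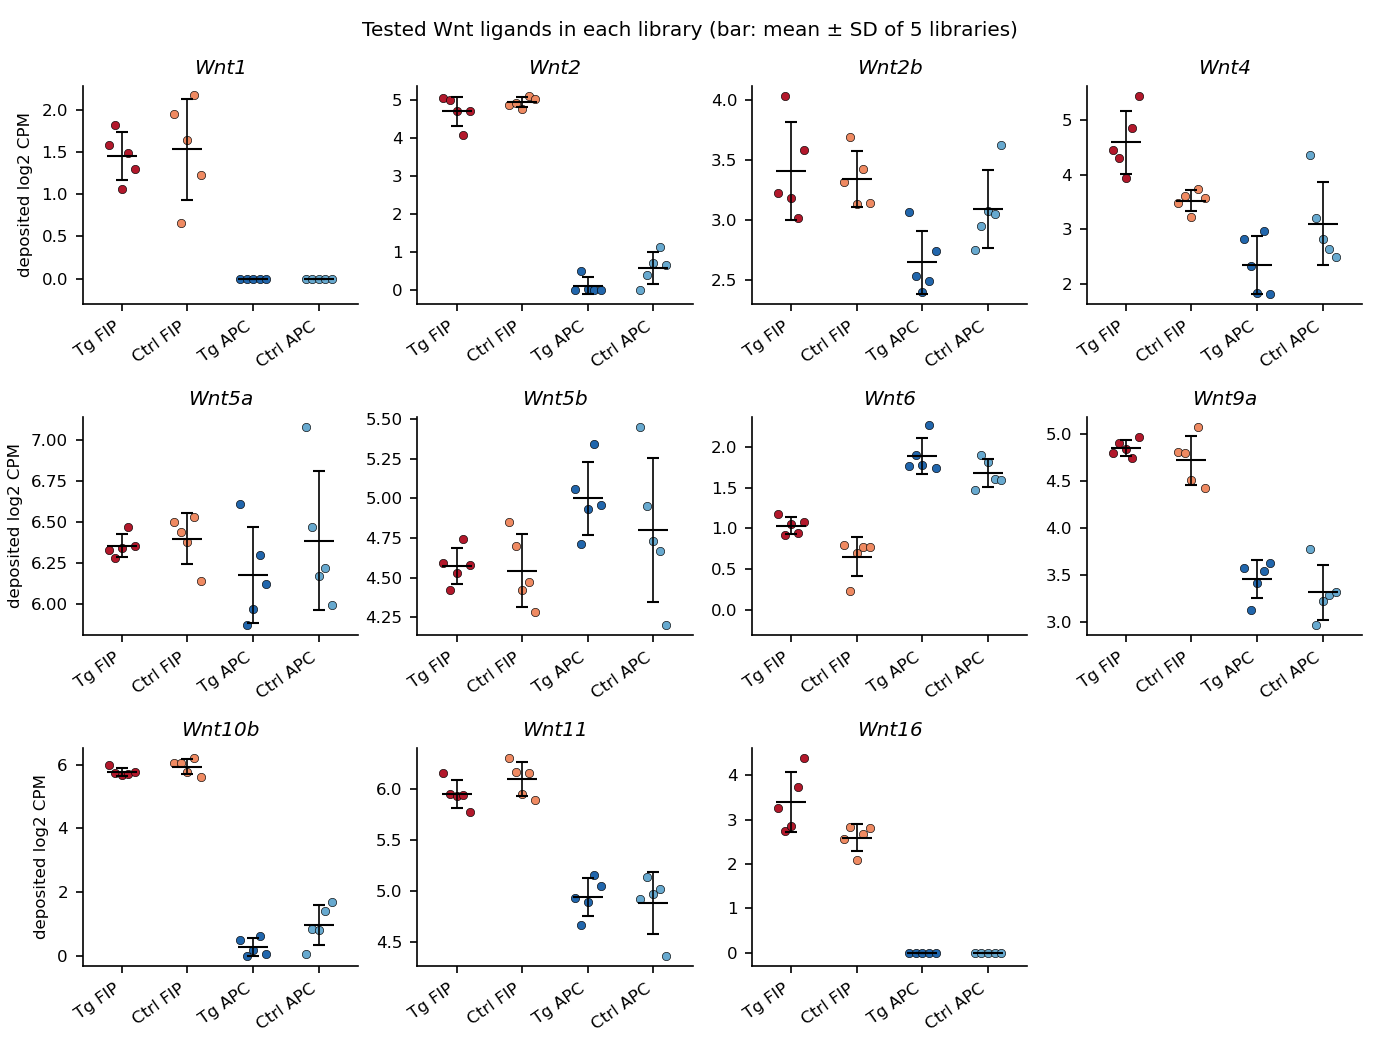
Deposited log2 CPM (y axis, own scale per panel) of the 11 tested Wnt ligands in each library of the 4 groups (x axis); points are libraries, bars the mean ± SD of 5. Wnt10b, Wnt2, Wnt16 and Wnt1 are below 2 in all APC libraries, Wnt16 and Wnt1 at 0, and above 0 in all FIP libraries, and Wnt6 is the only tested ligand whose FIP libraries all lie below all APC libraries.

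Summed per exonic kb, ligand mRNA was 78.2 to 90.2 CPM per kb in Tg FIPs and 74.3 to 94.5 in Ctrl FIPs, against 31 to 43.3 in Tg APCs and 30.6 to 53.3 in Ctrl APCs. Wnt10b, Wnt11 and Wnt2 had the highest means in Tg FIPs, at 16.1, 15.0 and 11.9 CPM per kb, followed by Wnt5a at 10.5. In Ctrl FIPs the order was the same, at 18.2, 16.6, 13.7 and 10.8, and the library ranges of Wnt10b and Wnt11 overlapped in both genotypes. In APCs the order began with Wnt5b and Wnt5a, at 12.2 and 9.39 CPM per kb in Tg APCs and 10.9 and 11.1 in Ctrl APCs, where their library ranges overlapped. Wnt11 came next in APCs, at 7.45 in Tg and 7.23 in Ctrl libraries.

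**Figure D3:**
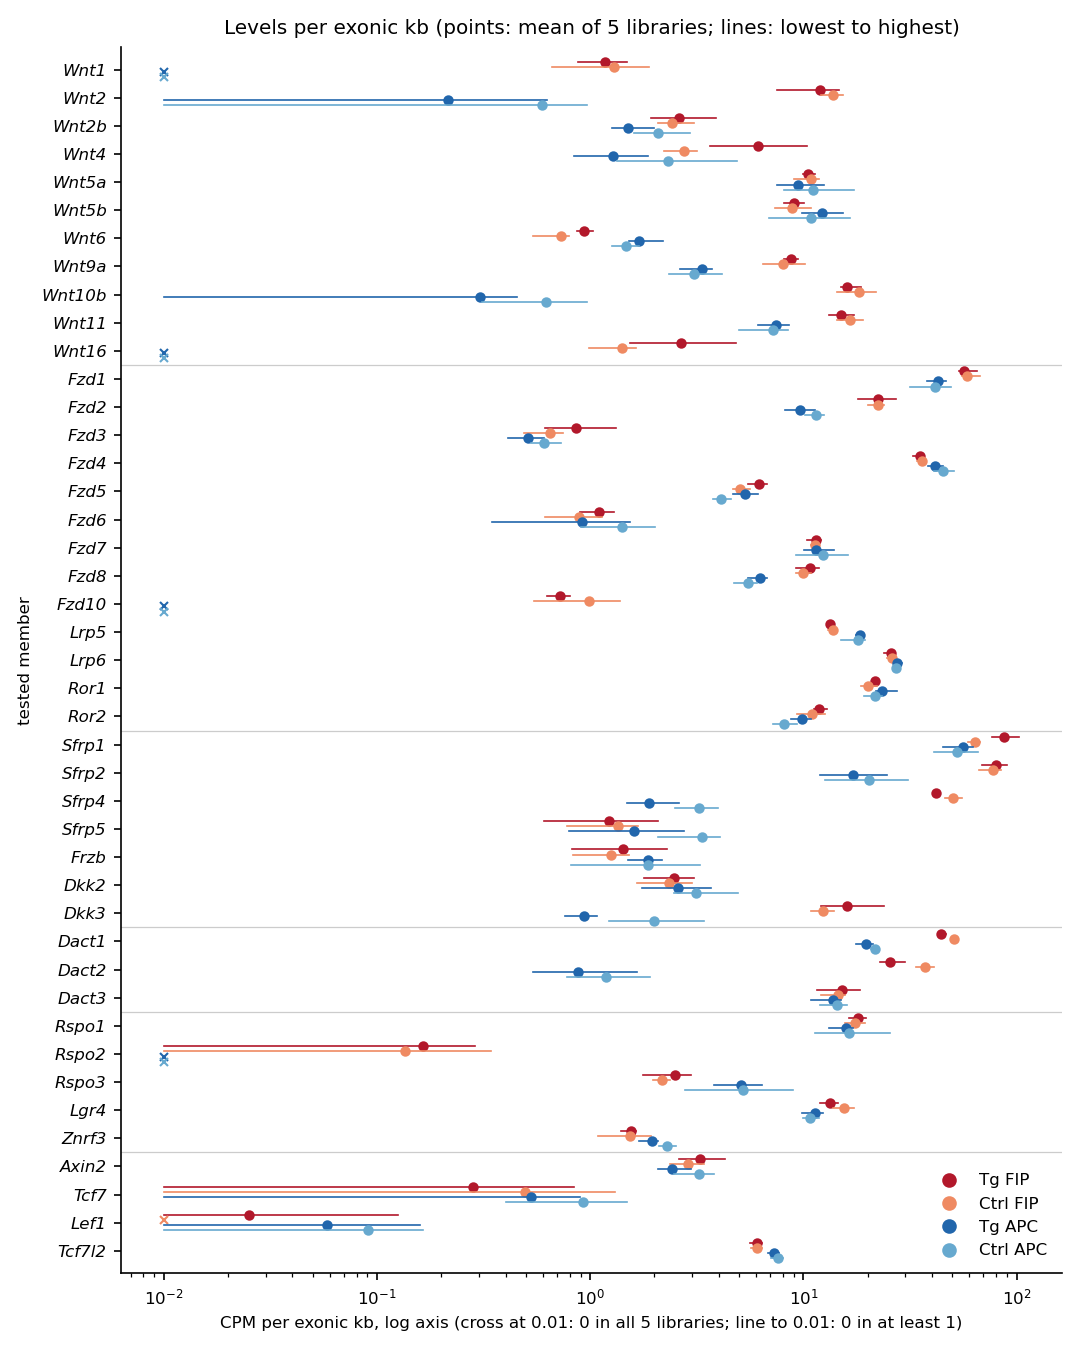
Mean CPM per exonic kb (x axis, log scale) of the 43 tested members (y axis, grouped by role) in the 4 groups; lines run from the lowest to the highest of 5 libraries. Fzd1, Fzd4, Sfrp1 and Sfrp2 are among the highest points, and crosses at the left mark Wnt1, Wnt16, Fzd10 and Rspo2 in APCs and Lef1 in Ctrl FIPs, listed at 0.

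Receptor mRNA differed less between the populations than ligand mRNA. Of 13 tested receptors and co-receptors, 7 were higher and 3 lower in FIPs of Tg mice, and 6 were higher and 2 lower in Ctrl mice. That is 76.9% and 61.5% called, against 41.7% and 47.5% of all tested genes. Fzd10, which entered the test only through FIPs, is among the higher ones in both genotypes and raises both shares. Summed per exonic kb, they reached 210 to 234 CPM per kb in Tg FIPs and 209 to 229 in Ctrl FIPs, against 193 to 200 in Tg APCs and 185 to 209 in Ctrl APCs. Fzd1 and Fzd4 had the highest levels per kb in every group. Fzd1 was at 56.5 ± 5.02 CPM per kb in Tg FIPs and 58.7 ± 4.79 in Ctrl FIPs, against 42.8 ± 3.58 in Tg APCs and 41.5 ± 7.02 in Ctrl APCs (SD, n = 5). Fzd4, which also serves as receptor for norrin, was lower in FIPs, at 35.1 ± 1.64 CPM per kb in Tg and 36.2 ± 1.21 in Ctrl libraries, against 41.5 ± 2.57 in Tg APCs and 45.0 ± 3.82 in Ctrl APCs.

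Fzd2 was the Frizzled with the largest FIP excess among those detected in both populations. It was at 6.4, 6.33, 6.05, 6.32 and 6.64 log2 CPM in Tg FIPs and 6.2, 6.44, 6.33, 6.35 and 6.45 in Ctrl FIPs, against 5.03, 4.91, 5.37, 5.14 and 5.2 in Tg APCs and 5.22, 5.52, 5.42, 5.29 and 5.44 in Ctrl APCs, with no overlap. The difference was 1.22 ± 0.09 in Tg mice (limma adjusted p = 8.85e-10) and 0.98 ± 0.09 in Ctrl mice (limma adjusted p = 2.95e-08). Fzd8 was higher in FIPs by 0.78 ± 0.08 and 0.86 ± 0.08 in Tg and Ctrl mice, and Fzd1 by 0.40 ± 0.09 and 0.51 ± 0.09. Fzd10 was at 1.39, 1.02, 1.3, 1.03 and 1.37 log2 CPM in Tg FIPs and 1.9, 2.16, 0.83, 2.05 and 0.88 in Ctrl FIPs and was listed at 0 in all APC libraries. It too entered the test only through FIPs, and no test is given.

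The LRP co-receptors had lower means in FIPs. Lrp5 was lower in FIPs by 0.47 ± 0.05 log2 units in Tg mice and by 0.39 ± 0.05 in Ctrl mice, passing in both, and no FIP library reached the lowest APC library. Lrp6 differed by -0.10 in Tg mice, which passed, and -0.07 in Ctrl mice, which did not. The Tg call was lost in 4 other settings and in 5 of 10 fits without 1 library (adjusted p up to 0.124), and the Ctrl difference passed with quantile normalization. Ror2, a receptor for Wnt5a, was higher in FIPs in both genotypes, by 0.27 ± 0.08 and 0.44 ± 0.08 in Tg and Ctrl mice, while its relative Ror1 differed by -0.11 (95% interval -0.25 to 0.02) and -0.11 (-0.25 to 0.03). The Tg call of Ror2 was lost with libraries centred on their medians (limma adjusted p = 0.0506). Fzd7 showed differences of 0.00 (-0.23 to 0.24) and -0.10 (-0.34 to 0.13) in Tg and Ctrl mice. Fzd3 passed in Tg mice alone, at 0.69 ± 0.19 against 0.09 ± 0.19 in Ctrl mice, and Fzd6 passed in neither. The remaining tested receptor, Fzd5, was higher in FIPs by 0.23 and 0.29 in Tg and Ctrl mice, both passing, though the Tg call was lost with libraries centred on their medians and with quantile normalization (adjusted p up to 0.109).

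Secreted antagonists were the most abundant class in FIPs beside the receptors. Of 7 tested, 4 were higher in FIPs and 0 lower in Tg mice, and 4 were higher and 1 lower in Ctrl mice. That is 57.1% and 71.4% called, against 41.7% and 47.5% of all tested genes. Their summed level was 208 to 255 CPM per exonic kb in Tg FIPs and 192 to 228 in Ctrl FIPs, against 67.5 to 89.5 in Tg APCs and 70.4 to 94.9 in Ctrl APCs. Sfrp1 and Sfrp2 led the class in FIPs, at 87.0 and 80.5 CPM per kb in Tg libraries and 64.1 and 77.2 in Ctrl libraries. In APCs Sfrp1 led alone, at 56.2 in Tg and 52.8 in Ctrl libraries, with Sfrp2 at 17.1 and 20.4.

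Sfrp4, a Frizzled-related protein known in fat as a secreted factor linked to obesity (chromosome 13, 19623104 to 19632994, plus strand), had the smallest adjusted p of all members. It was at 7.51, 7.45, 7.49, 7.4 and 7.42 log2 CPM in Tg FIPs and 7.6, 7.66, 7.73, 7.68 and 7.86 in Ctrl FIPs, against 3.45, 2.92, 2.94, 2.63 and 2.83 in Tg APCs and 3.38, 3.61, 3.99, 3.64 and 4.06 in Ctrl APCs. The populations were separated by more than 3 log2 units in every library. The difference was 4.50 ± 0.12 in Tg mice, a fold of 22.6 (limma adjusted p = 1.49e-16), and 3.97 ± 0.12 in Ctrl mice, a fold of 15.7 (limma adjusted p = 8.39e-16).

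Dkk3 (chromosome 7, 112116017 to 112159057, minus strand), a divergent Dickkopf protein whose action on Wnt signals is less certain than that of Dkk1, was at 5.64, 5.44, 5.34, 5.77 and 6.32 log2 CPM in Tg FIPs and 5.19, 5.41, 5.28, 5.39 and 5.54 in Ctrl FIPs, against 1.81, 1.36, 1.4, 1.74 and 1.86 in Tg APCs and 2.03, 2.4, 3.52, 2.31 and 2.95 in Ctrl APCs. FIPs and APCs did not overlap. The excess was 4.07 ± 0.22 in Tg mice and 2.72 ± 0.22 in Ctrl mice, folds of 16.8 and 6.59. Sfrp2 was higher in FIPs by 2.28 ± 0.19 in Tg mice and 1.97 ± 0.19 in Ctrl mice, and Sfrp1 by 0.63 ± 0.11 and 0.30 ± 0.11. Sfrp1 in Ctrl mice was the only one of the 26 calls there that another setting or a left-out library took away.

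Sfrp5, an antagonist of Wnt5a that is made in fat, was the 1 antagonist called lower in FIPs. It was at 1.98, 1.02, 1.62, 0.2 and 0.5 log2 CPM in Tg FIPs and 0.56, 1.6, 1.24, 1.48 and 1.67 in Ctrl FIPs, against 2.38, 1.43, 1.66, 1.46 and 0.6 in Tg APCs and 1.98, 2.88, 2.7, 2.61 and 2.95 in Ctrl APCs. In Ctrl mice FIPs lay below APCs without overlap, by 1.31 ± 0.33 log2 units (limma adjusted p = 0.00272), whereas in Tg mice the groups overlapped and the difference of -0.44 ± 0.33 did not pass. Frzb and Dkk2 passed in neither genotype, with differences of -0.47 and -0.47 for Frzb and -0.06 and -0.40 for Dkk2 in Tg and Ctrl mice.

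The Dact proteins are intracellular partners of Dishevelled that modulate Wnt signals. Dact2 (chromosome 17, 14195052 to 14204304, minus strand) had the largest FIP excess of all members in Ctrl mice, at 6.5, 6.67, 6.4, 6.28 and 6.28 log2 CPM in Tg FIPs and 6.83, 6.9, 7.05, 7.12 and 6.93 in Ctrl FIPs, against 2.48, 1.29, 1.1, 1.52 and 0.86 in Tg APCs and 1.4, 1.63, 1.7, 2.2 and 2.68 in Ctrl APCs. That is a difference of 4.98 ± 0.24 in Tg mice and 5.04 ± 0.24 in Ctrl mice, folds of 31.5 and 33. Dact1, known as a gene of preadipocytes, was higher in FIPs by 1.17 ± 0.04 and 1.24 ± 0.04 in Tg and Ctrl mice. Dact3 did not pass in either, at 0.13 ± 0.12 and 0.02 ± 0.12. Of the members, 12 share exonic bases with an annotated gene on the other strand, Dact1, Dact2 and Sfrp2 among them, and the strand setting of the counting is not given. Those antisense genes were listed at 0 in every library.

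Rspo3, which encodes R-spondin 3, had the largest member difference towards APCs that passed in both genotypes. It was at 3.12, 2.44, 2.83, 3.2 and 3.0 log2 CPM in Tg FIPs and 2.85, 2.6, 2.73, 2.87 and 2.65 in Ctrl FIPs, against 4.29, 3.95, 3.55, 4.31 and 3.62 in Tg APCs and 4.78, 4.28, 3.6, 3.67 and 3.11 in Ctrl APCs. Within each genotype the FIP libraries lay below the APC libraries, by 1.03 ± 0.23 in Tg mice (limma adjusted p = 0.00128) and 1.15 ± 0.23 in Ctrl mice (limma adjusted p = 0.000466). Rspo1, which had the highest level of the R-spondins per kb in every group (15.8 to 18 CPM per kb), did not pass, with differences of 0.19 and 0.15. Rspo2 was above 0 in 3 Tg FIP and 2 Ctrl FIP libraries and in 0 APC libraries, at 0.80 log2 CPM at most. The R-spondin receptor Lgr4 was higher in FIPs by 0.23 ± 0.07 and 0.53 ± 0.07 in Tg and Ctrl mice, and the ligase Znrf3 lower by 0.31 ± 0.11 and 0.59 ± 0.11, all passing. The Tg call of Lgr4 was lost with libraries centred on their medians (limma adjusted p = 0.0544). That of Znrf3 was lost in 3 of 10 fits without 1 library (limma adjusted p up to 0.0718).

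At the nuclear end the differences were small. Axin2, a feedback inhibitor and general target of beta-catenin signalling, was at 4.01, 4.03, 3.84, 4.31 and 4.56 log2 CPM in Tg FIPs and 3.7, 4.24, 4.01, 4.06 and 3.81 in Ctrl FIPs, against 4.03, 3.52, 3.6, 3.79 and 3.65 in Tg APCs and 4.1, 3.77, 4.28, 4.15 and 4.39 in Ctrl APCs. It was higher in FIPs of Tg mice by 0.43 ± 0.14 (limma adjusted p = 0.0173; 0.0635 without Tg FIP replicate 5), and the difference in Ctrl mice was -0.17 ± 0.14 (limma adjusted p = 0.328). Tcf7l2, the TCF factor with the highest level, was lower in FIPs by 0.27 ± 0.05 in Tg mice and 0.33 ± 0.05 in Ctrl mice, passing in both. Tcf7 and Lef1 did not pass, and Lef1 was above 0 in 1 Tg FIP, 0 Ctrl FIP, 2 Tg APC and 3 Ctrl APC libraries.

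**Figure D4:**
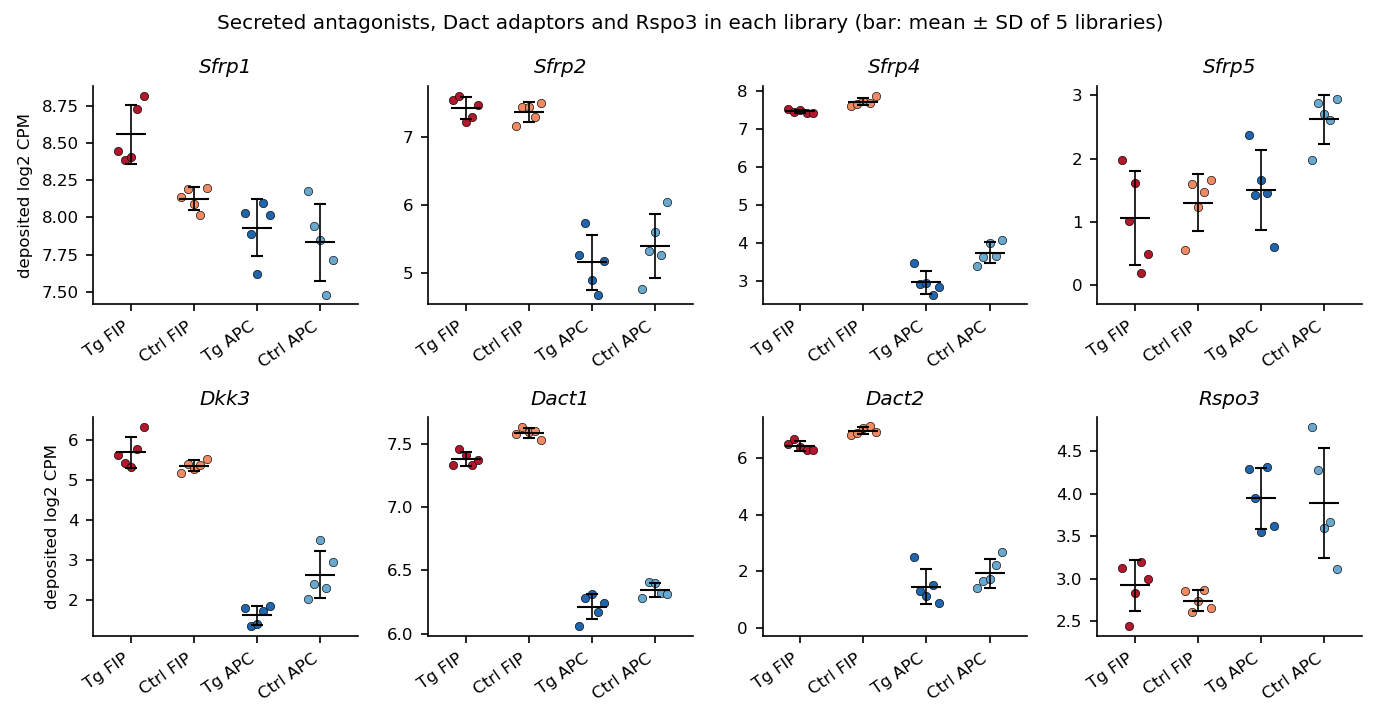
Deposited log2 CPM (y axis, own scale per panel) of 5 secreted antagonists, Dact1, Dact2 and Rspo3 in each library of the 4 groups (x axis); points are libraries, bars the mean ± SD of 5. Sfrp4, Dkk3, Dact1 and Dact2 separate all FIP from all APC libraries, and Sfrp4, Sfrp5 and Dkk3 have lower means in Tg than in Ctrl APCs.

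The second question was whether the transgene label moved these genes within a population. In FIPs almost none passed: 1 of 43 members, Dact1, where 0.373% of all tested genes passed (0.241% higher and 0.132% lower; with libraries centred on their medians 27 genes higher and 25 lower, against 42 and 23). Dact1 stood at 7.33, 7.46, 7.41, 7.33 and 7.37 log2 CPM in Tg FIPs and 7.58, 7.63, 7.59, 7.6 and 7.53 in Ctrl FIPs. Every Tg library lay below every Ctrl library, by 0.21 ± 0.04 on average (limma adjusted p = 0.0367; exact permutation p = 0.00794). The call was lost in 8 of the 10 fits that left out 1 FIP library (adjusted p up to 0.111) and with libraries centred on their medians (adjusted p = 0.134). The median difference over the members, Tg minus Ctrl, was 0.03, and over all tested genes 0.01.

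Of the 43 tested members, 8 had an unadjusted limma p under 0.05 in FIPs, against 10.6% of all tested genes. The Tg and Ctrl FIP libraries did not overlap for 6 members (Wnt4, Wnt6, Sfrp1, Sfrp4, Dact1 and Dact2), where 2.89% of all tested genes did not overlap. Wnt4 and Sfrp1 were above their Ctrl values in all 5 Tg libraries, with differences of 1.07 ± 0.32 (limma adjusted p = 0.172) and 0.43 ± 0.11 (limma adjusted p = 0.0931). Sfrp1 was at 8.45, 8.39, 8.41, 8.73 and 8.82 log2 CPM in Tg FIPs and 8.14, 8.19, 8.09, 8.02 and 8.2 in Ctrl FIPs. Wnt6 differed by 0.38 ± 0.13, Dact2 by -0.54 ± 0.24 and Sfrp4 by -0.25 ± 0.12, with limma adjusted p of 0.276, 0.425 and 0.49. Wnt16 differed by 0.81 with overlapping libraries and is among the 8 with an unadjusted p under 0.05. Its APC libraries, all listed at 0, lower the spread that limma shares between groups, so no test is given for it. Wnt10b and Wnt2, high in FIPs of both genotypes, differed by -0.17 (95% interval -0.62 to 0.29) and -0.23 (-0.63 to 0.16).

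In APCs 5 members passed, 2 higher and 3 lower in the libraries labelled transgenic, where 8.01% of all tested genes passed (2.1% higher and 5.91% lower; with libraries centred on their medians 1376 genes higher and 823 lower, against 366 and 1030). With that centring 3 members were higher and 3 lower. The 3 lower ones were the antagonists Sfrp4, Dkk3 and Sfrp5, and the 2 higher ones the receptors Fzd5 and Ror2. These calls rest on the spread shared by all 20 libraries: fitted on the 10 APC libraries alone, 0 members and 0 genes passed. The median within-group SD of the members was 0.22 log2 units in APCs and 0.18 in FIPs. The median difference over the members was -0.08, and over all tested genes -0.03.

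Sfrp4 had the smallest adjusted p of the 5. It was at 3.45, 2.92, 2.94, 2.63 and 2.83 log2 CPM in Tg APCs and 3.38, 3.61, 3.99, 3.64 and 4.06 in Ctrl APCs, so that 4 of 5 Tg libraries lay below the lowest Ctrl library. It was lower in Tg APCs by 0.78 ± 0.12 (limma adjusted p = 0.00298; exact permutation p = 0.0159; adjusted p = 0.121 on APC libraries alone). Dkk3, at 1.81, 1.36, 1.4, 1.74 and 1.86 in Tg APCs and 2.03, 2.4, 3.52, 2.31 and 2.95 in Ctrl APCs, was lower in every Tg library. It fell by 1.01 ± 0.22 (limma adjusted p = 0.0164; exact permutation p = 0.00794), with an adjusted p of 0.0552 without Ctrl APC replicate 5 and 0.132 on APC libraries alone. Sfrp5 fell by 1.12 ± 0.33 (limma adjusted p = 0.0446; exact permutation p = 0.0159), a call that was lost in 8 of 10 fits without 1 APC library (adjusted p up to 0.141) and on APC libraries alone (0.137). The Sfrp5 call was also lost with a pseudocount of 0.1, with no filter and with a block for the replicate number.

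Fzd5, a receptor able to carry canonical and non-canonical signals (chromosome 1, 64730558 to 64737751, minus strand), was at 5.2, 5.08, 5.01, 5.41 and 5.24 log2 CPM in Tg APCs and 4.88, 4.98, 4.82, 4.76 and 4.71 in Ctrl APCs. All Tg libraries lay above all Ctrl libraries, by 0.36 ± 0.07 (limma adjusted p = 0.0139; exact permutation p = 0.00794; adjusted p = 0.121 on APC libraries alone). In FIPs the same receptor differed by 0.30 ± 0.07 (limma adjusted p = 0.0853). Ror2 was higher in Tg APCs by 0.27 ± 0.08 (limma adjusted p = 0.0389; exact permutation p = 0.0238), a call lost in 6 of 10 fits without 1 APC library (adjusted p up to 0.125) and on APC libraries alone (0.15). The Ror2 call was also lost with no filter, with weights per library and with a block for the replicate number. The groups of 3 members (Fzd5, Dkk3 and Znrf3) did not overlap, where 2.92% of all tested genes did not.

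In APCs 16 of the 43 tested members, the 5 that passed among them, had an unadjusted limma p under 0.05, against 25.5% of all tested genes. Wnt10b and Wnt2, near 0 in APCs, differed by -0.69 ± 0.22 (limma adjusted p = 0.0537) and -0.47 ± 0.19 (limma adjusted p = 0.127). Axin2 differed by -0.42 ± 0.14 (limma adjusted p = 0.0667). The number of members called was 9 (2 higher, 7 lower) without Tg APC replicate 1, and likewise 9 (2 higher, 7 lower) without Ctrl APC replicate 1. The count over all tested genes moved as well, to between 181 and 2849 with 1 APC library left out, against 1396 with all libraries.

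Markers of FIPs and of other cells moved with the genotype label in APCs, where 2.1% of all tested genes were higher and 5.91% lower. All 6 FIP markers were lower in Tg APCs, with a summed level of 205 to 247 CPM in Tg APCs and 295 to 323 in Ctrl APCs. Sfrp4, Dkk3, Wnt10b, Wnt2, Sfrp2 and Dact2, all far higher in FIPs than in APCs, had lower means in Tg APCs too. For Sfrp2 and Dact2 the differences were -0.24 and -0.47. Members with a smaller FIP excess went both ways. Fzd2 differed by -0.25 in Tg APCs, and Fzd5, Ror2 and Fzd8 by 0.36, 0.27 and 0.19. Sfrp5, lower in FIPs than in APCs of Ctrl mice, fell by 1.12 in Tg APCs. Of 10 macrophage markers 6 were lower (180 to 291 CPM in Tg APCs, 274 to 460 in Ctrl APCs), and of 6 erythroid markers 6 were lower (454 to 1040 CPM and 805 to 1540 CPM). Of 10 mesothelial markers 2 were lower (181 to 253 CPM in Tg APCs, 249 to 279 in Ctrl APCs). Of 5 APC, 8 mural and 10 endothelial markers, 1 each was lower. No marker list named here had a member at 0 in every library. Whether this mRNA came from other cells or from the sorted ones was not tested, nor was its part in the APC differences.

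**Figure D5:**
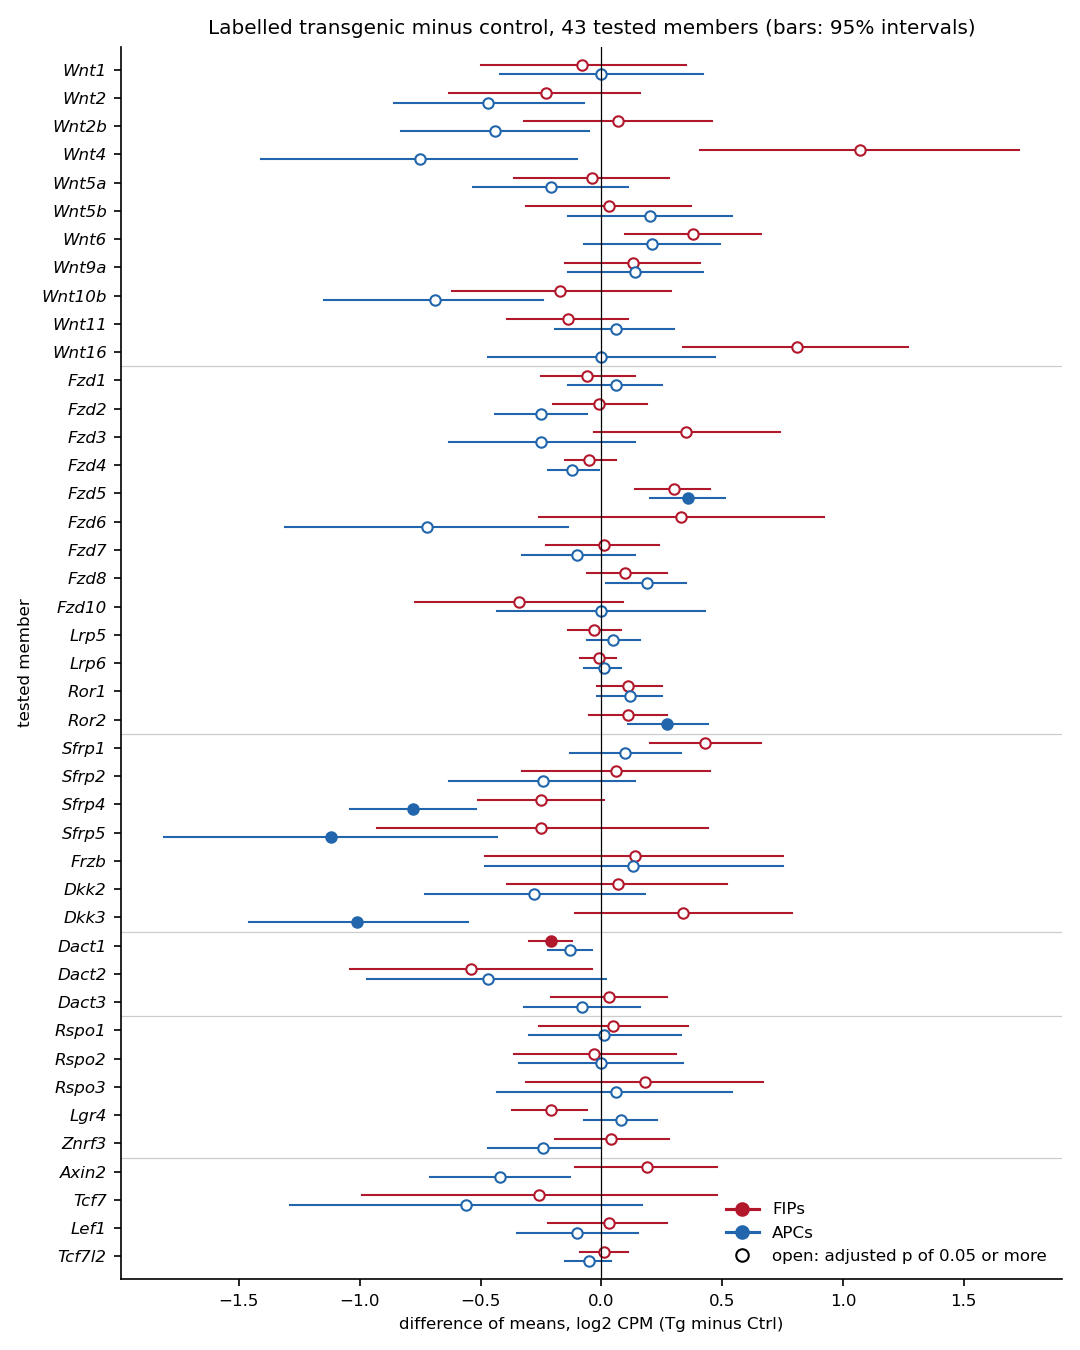
Difference of mean log2 CPM between libraries labelled transgenic and control (x axis, Tg minus Ctrl) for the 43 tested members (y axis, grouped by role), in FIPs (red, upper) and APCs (blue, lower). Bars are 95% intervals and filled points passed limma's test: Dact1 in FIPs, and Fzd5, Ror2, Sfrp4, Sfrp5 and Dkk3 in APCs.

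Whether the genotype difference itself depends on the population was tested by the interaction term, which compares the Tg minus Ctrl difference in FIPs with that in APCs. No member passed in limma, nor did any other gene (0% of all tested genes). An unadjusted limma p under 0.05 was found for 9 of the 43 tested members, against 13.7% of all tested genes. Wnt16 is among the 9, but it was listed at 0 in all APC libraries, so its term only repeats its difference in FIPs. Wnt4 differed by 1.82 ± 0.45 (limma adjusted p = 0.127), being 1.07 in FIPs and -0.75 in APCs. Dkk3 differed by 1.35 ± 0.31 (limma adjusted p = 0.114), and Sfrp4 by 0.53 ± 0.17 (limma adjusted p = 0.229). Among other members called between populations in 1 genotype only, Wnt2b differed by 0.51 ± 0.27, Fzd3 by 0.60 ± 0.26, Sfrp5 by 0.87 ± 0.47 and Axin2 by 0.61 ± 0.20 (limma adjusted p of 0.399, 0.323, 0.412 and 0.229). Without Tg APC replicate 1, Wnt4, Dkk3 and Sfrp4 passed, at adjusted p of 0.0363 for Wnt4, 0.0352 for Dkk3 and 0.0291 for Sfrp4, and without Ctrl APC replicate 1 Dkk3 passed at 0.0343. With weights per library the same 3 passed, at 0.0478 for Wnt4, 0.0349 for Dkk3 and 0.042 for Sfrp4. Genes outside the set were gained too: over all tested genes 0 to 331 passed with 1 library left out, and further genes passed with weights per library.

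Outside the set, 121 further genes of the pathway were counted, of which 112 were tested. In FIPs against APCs 43 were higher and 27 lower in Tg mice (62.5% called, against 41.7% of all tested genes), and 40 were higher and 32 lower in Ctrl mice (64.3% called, against 47.5%). The counts of the single lists below are to be read against the same shares. Wls, which carries Wnt proteins to the cell surface, was higher in FIPs by 0.42 ± 0.03 in Tg mice and 0.44 ± 0.03 in Ctrl mice. Porcn, which attaches their lipid, was lower by 0.35 ± 0.10 in Ctrl mice and differed by -0.19 ± 0.10 in Tg mice, which did not pass. Among other surface partners, of 14 tested 7 were higher and 2 lower in Tg FIPs, and 8 were higher and 3 lower in Ctrl FIPs, with Gpc6, a glypican, at 1.03 ± 0.08 and 1.12 ± 0.08 in Tg and Ctrl mice. Lrp4 was higher by 1.41 ± 0.12 and 0.71 ± 0.12 in Tg and Ctrl mice.

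Among 16 other modulators tested, 8 were higher and 1 lower in Tg FIPs, and 6 were higher and 4 lower in Ctrl FIPs. Cxxc4, a Dishevelled-binding inhibitor, showed the largest difference, at 3.0 ± 0.18 in Tg mice and 2.94 ± 0.18 in Ctrl mice. Cthrc1, a secreted protein that favours the planar polarity branch, was higher in FIPs by 2.01 ± 0.16 and 1.43 ± 0.16 in Tg and Ctrl mice, and Draxin by 1.81 ± 0.24 and 1.62 ± 0.24. Of 14 common target genes tested, 7 were higher and 5 lower in Tg FIPs, and 7 were higher and 4 lower in Ctrl FIPs. Wisp2, also called Ccn5, was higher by 1.89 ± 0.16 and 1.32 ± 0.16 in Tg and Ctrl mice, Wisp1 by 1.02 ± 0.17 and 0.45 ± 0.17, and Nr2f2 was lower by 0.72 ± 0.05 and 0.82 ± 0.05.

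The intracellular and nuclear lists split more evenly. Of 23 intracellular signalling genes, 6 were higher and 6 lower in Tg FIPs, and 6 were higher and 5 lower in Ctrl FIPs (52.2% and 47.8% called, near the 41.7% and 47.5% of all tested genes). Frat2 was lower by 1.17 ± 0.12 and 0.98 ± 0.12 and Apc2 by 0.89 ± 0.16 and 0.83 ± 0.16 in Tg and Ctrl mice. Of 14 nuclear partners, 4 were higher and 4 lower in Tg FIPs, and 4 were higher and 5 lower in Ctrl FIPs. Tle2, a corepressor, was higher by 0.68 ± 0.11 and 0.31 ± 0.11 in Tg and Ctrl mice. Pygo2 was lower by 0.46 ± 0.06 and 0.27 ± 0.06 in Tg and Ctrl mice, and Pygo1 was higher by 0.41 ± 0.07 and 0.30 ± 0.07. Of 29 planar polarity and calcium branch genes, 10 were higher and 9 lower in Tg FIPs, and 8 were higher and 10 lower in Ctrl FIPs. The atypical cadherin Celsr3 was lower by 0.93 ± 0.18 and 0.85 ± 0.18 in Tg and Ctrl mice, and the kinase Camk2a by 0.66 ± 0.15 and 0.62 ± 0.15. Celsr1 and Celsr2 were lower by 1.34 ± 0.28 and 1.2 ± 0.28 in Ctrl mice, and Tspan12, a partner of Fzd4, was lower by 0.78 ± 0.17 there; these 3 did not pass in Tg mice.

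Between genotypes, 2 of the 112 further genes passed in FIPs: Gpc4, a glypican, was higher in Tg FIPs by 0.28 ± 0.05 (limma adjusted p = 0.0261), and Cxxc5 was lower by 0.21 ± 0.04 (limma adjusted p = 0.0266). That is 1.79% of the list, against 0.373% of all tested genes. In APCs 6 were higher and 8 lower in the Tg libraries (12.5%, against 8.01% of all tested genes). Cxxc5 fell there too, by 0.24 ± 0.04 (limma adjusted p = 0.00449). Lrp4, Tspan12 and Apcdd1, an inhibitor at the cell surface, were lower by 0.60 ± 0.12, 0.58 ± 0.17 and 0.48 ± 0.13. Celsr1, Celsr2 and Ppp2r5a were lower by 1.12 ± 0.28, 0.96 ± 0.28 and 0.34 ± 0.09, and Frat2, Sox9 and Fosl1 were higher by 0.43 ± 0.12, 0.40 ± 0.10 and 0.36 ± 0.11. No gene of these lists passed in the interaction, where 21 of 112 had an unadjusted limma p under 0.05, against 13.7% of all tested genes.

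The 12 members listed at 0 in every library were the ligands Wnt3, Wnt3a, Wnt7a, Wnt8a, Wnt8b, Wnt9b and Wnt10a, the antagonists Dkk1, Dkk4 and Wif1, the R-spondin Rspo4 and Notum, an enzyme that removes the lipid of Wnt proteins. Each was therefore at or below 1 CPM in all 20 libraries, which does not show that it was absent. The 5 members above 0 in too few libraries to test were Wnt7b in 1 library, Lgr6 in 2, Fzd9 and Lgr5 in 3 each and Rnf43 in 4. Rnf43, the second ligase of Frizzleds, was above 0 in 4 of 5 Ctrl APC libraries, at 0.21, 0.32, 1.2 and 0.77 log2 CPM, and listed at 0 in the remaining 16 libraries. Lgr5 reached 0.64 log2 CPM at most, Fzd9 0.53, Wnt7b 0.24 and Lgr6 0.20. Wnt10a lies 6.2 kb from the detected Wnt6 on chromosome 1, and Wnt3a lies 16.2 kb from the detected Wnt9a on chromosome 11.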

How the data were processed

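Polyadenylated RNA of 20 sorted pools was sequenced. The authors deposited 1 table of log2 CPM per gene, in which a value at or below 1 CPM is listed as 0. Per the submitters' processing notes, Trim Galore 0.4.1, HISAT2 2.0.1, featureCounts 1.4.6 and DESeq2 1.6.3 were used with GRCm38. Neither the annotation release nor the strand setting is given, and the named library kit does not mark strand. Genes above 0 in at least 5 libraries (17435 of 54304) entered 1 limma-trend fit (limma 3.58.1, R 4.3.3) of 4 group means over all 20 libraries, with 16 residual degrees of freedom. Each p was adjusted over all tested genes with Benjamini-Hochberg at 0.05. The 60 members and all lists were chosen with earlier results of these data known. Named genes were every member passing between genotypes, the 4 largest passing members per role between populations in Ctrl mice with a mean of at least 1, and the 2 largest passing genes of each further pathway list per comparison. The other members were described after their values were seen. Exact permutation tests over libraries were two-sided. Levels per kb used exon lengths of GENCODE M21, and promoters came from RefSeq. Alternatives changed the pseudocount, filter, scaling, variance model, libraries and block. The calculation was tested on simulated data. Python 3.11.15 drew the figures.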

Additional observations from a re-analysis of the deposited data

Results flagged for a closer look

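In 10 of 163 groups of 5 libraries, 1 library stood far from the other 4, where chance gives about 1 in 20. Among the ligands, Wnt2 was 0.50 log2 CPM in Tg APC replicate 2, against 0.00 to 0.01 in the other Tg APC libraries, and Wnt10b was 5.99 in Tg FIP replicate 1, against 5.67 to 5.76. Wnt6 was 0.24 in Ctrl FIP replicate 2, against 0.70 to 0.80, and Wnt11 was 4.36 in Ctrl APC replicate 5, against 4.92 to 5.13.

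Among the receptors, Fzd1 was highest in replicate 5 of both FIP groups, at 8.10 in Tg FIPs (the others 7.81 to 7.87) and 8.14 in Ctrl FIPs (the others 7.87 to 7.91). Ror1 was 7.31 in Tg APC replicate 2, against 6.98 to 7.04, and Fzd4 was 7.84 in Ctrl FIP replicate 1, against 7.93 to 7.96. The antagonist Dkk2 was 4.19 in Ctrl APC replicate 1, against 3.20 to 3.42. Lef1 was 0.14 in Tg FIP replicate 3 and listed at 0 in the other Tg FIP libraries.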

How the results depend on the processing

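Between populations the counts of members passing were 27 to 32 in Tg mice and 24 to 28 in Ctrl mice over the settings tried, and 28 to 31 and 25 to 32 with 1 library left out. Of those calls, 24 of 31 in Tg mice and 25 of 26 in Ctrl mice held in every setting and left-out fit. The exceptions were Wnt5b, Fzd5, Lrp6, Ror2, Lgr4, Axin2 and Znrf3 in Tg mice and Sfrp1 in Ctrl mice. Without Ctrl APC replicate 1, Wnt4, Fzd6, Frzb, Rspo1, Tcf7 and Lef1 also passed in Ctrl mice. Between genotypes in FIPs, the count of 1 became 0 with libraries centred on their medians, 3 with array weights and 2 with only the groups compared, and was 0 to 1 with 1 library left out. In APCs the count of 5 became 3 with no filter and 0 with only the groups compared, and was 2 to 9 with 1 library left out. In the interaction the count of 0 became 3 with array weights and 1 (Dkk3) with the replicate block by pool, and was 0 to 3 with 1 library left out.

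Over all genes, 65 passed between genotypes in FIPs, and 271 with array weights, 36 with only the groups compared, 101 with the replicate block by number and 9 to 125 with 1 library left out. In APCs 1396 passed, and 823 with a pseudocount of 0.1, 812 with no filter, 2253 with array weights, 0 with only the groups compared and 181 to 2849 with 1 library left out. Centring on medians gave 2199 in APCs, 1376 higher and 823 lower, against 366 higher and 1030 lower. In FIPs it gave 27 higher and 25 lower, against 42 and 23. Between populations it gave 3185 higher and 4091 lower in Tg mice, against 3962 and 3313, and 4178 and 3740 in Ctrl mice, against 3422 and 4866. In the interaction 0 passed, and 3 with a pseudocount of 1, 1 with quantile normalization, 176 with array weights, 25 with the replicate block by pool and 0 to 331 with 1 library left out. Centring shifted the interaction by -0.12 at the median. The cause of these changes was not tested, except that a fit on fewer groups has fewer libraries.

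Replicate numbers are shared by the groups, but the labels tie them to nothing. Deviations of FIP and APC libraries of the same number correlated at 0.04 to 0.33 over 10 pairs, and 5 of 10 FIP libraries were best matched by their own number. Libraries of the same number and population but of different genotype, which cannot share mice, correlated at -0.32 to 0.15. With the replicate block by number, 31 members passed between populations in Tg mice, 26 in Ctrl mice, 1 between genotypes in FIPs, 4 in APCs and 0 in the interaction. The 4 in APCs were Fzd5, Sfrp4, Dkk3 and Dact1, so that this block lost Ror2 and Sfrp5 and gained Dact1. The block by pool gained Wnt5b and Fzd6 in Ctrl mice and Sfrp5 in Tg mice between populations. No member difference that passed changed its sign in any setting or left-out fit, but differences that did not pass did so 103 times, in 40 of 215 member results, none passing after the change. Tcf7l2 between genotypes in APCs, for example, was 0.04 with libraries centred on their medians, against -0.05. Depth limits members near 1 CPM, where lower values are listed as 0.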
